A study of Homo sapiens with 9 samples.

Results

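Interferon-stimulated genes and sensors of foreign RNA were followed in ES-2 cells, an established line derived from an ovarian carcinoma, after knockdown of the mRNA-binding protein IGF2BP1 or of the transcription factor SRF. The set holds 51 genes of the 58174 in the deposited tables. It was put together by name, from textbook roles in the interferon response and in the sensing of nucleic acids. No measured value served as a criterion, but earlier results of these data were known when the set was chosen. All 51 were found, 11 of them sensors of RNA or DNA and enzymes that act on double-stranded RNA, and the other 40 factors, effectors and further interferon-inducible genes. Total RNA was depleted of ribosomal RNA and sequenced 72 h after cells received control siRNA (siC), a pool of siRNAs against IGF2BP1 (siIGF2BP1, labelled siImp1) or a pool of siRNAs against SRF (siSRF), with 3 libraries in each group. The cells of all 9 libraries were transfected with siRNA, and no untransfected cells were analysed here. Each target was hit by 1 pool, so that the loss of the targeted mRNA and other effects of that pool cannot be told apart. The labels do not say whether the 3 libraries of a group came from separate cultures, so p-values measure the spread between these libraries, which may be technical.

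As background, cells detect double-stranded or otherwise foreign RNA with cytosolic helicases such as RIG-I and MDA5 and with the endosomal receptor TLR3. These signal through adaptors and kinases to transcription factors that switch on interferons. Secreted interferon acts through its receptors, JAK kinases and STAT proteins on the interferon-stimulated response element, a motif in the promoters of many antiviral genes, many of which are also held at a low basal level by the same factors in cells that see no virus. Tumour-derived lines differ widely in this basal level.

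The libraries held 6421764 to 9416175 reads counted on genes (median 7377934), and values are given as FPKM, reads scaled to the length of the gene and the size of the library. The targeted mRNAs were checked first. IGF2BP1 was at 12.8, 13.5 and 12.1 FPKM in siC and at 4.18, 4.14 and 4.02 FPKM in siIGF2BP1, and SRF was at 13.6, 14.1 and 15.99 FPKM in siC and at 1.63, 1.36 and 1.42 FPKM in siSRF. SRF was also lower in siIGF2BP1, at 5.80, 5.42 and 6.80 FPKM. Each targeted mRNA was thus lowest in the libraries labelled with its own siRNA pool. Of the carcinoma markers checked, KRT7, KRT8, KRT18, CDH2 and VIM were expressed in every library. The ovarian epithelial marker MUC16 had no read, and PAX8, WT1 and EPCAM reached at most 0.262 FPKM. Among the markers, KRT7, KRT8 and CDH2 were called higher in siIGF2BP1, and KRT7 and KRT18 higher and VIM lower in siSRF. Of 7 leukocyte markers, PTPRC, CD3E and NKG7 had no read in any library, and the sum over the list ranged from 0.246 to 0.557 FPKM in siC, 0.263 to 0.945 FPKM in siIGF2BP1 and 0 to 0.211 FPKM in siSRF. The part of such markers in the results was not tested.

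In siC cells, 10 of the 51 genes had a mean of at least 10 FPKM, 22 lay between 1 and 10 FPKM, 14 were detected below 1 FPKM and 5 had no read. The RNA-editing enzyme ADAR was the highest at 44.8 FPKM ± 2.63 (SD, n = 3), followed by the DNA sensor IFI16 at 25.2 FPKM ± 2.38 (SD, n = 3) and by IFI44 at 24.3 FPKM ± 3.37 (SD, n = 3), between which the siC libraries overlapped. RSAD2, CMPK2 and EPSTI1 had no read in any of the 9 libraries, which allows RSAD2, for example, a level of up to 0.0681 to 0.094 FPKM per library (3 reads, counting error only). MX1, MX2, BST2 and OASL, which are strongly inducible in many cells, were covered by 0 to 27 reads summed over the 3 libraries of a group. These 7 genes did not reach the mean of 0.1 FPKM needed for a test and are described by their reads. BST2 had 4 reads and MX2 had 3 reads in siIGF2BP1 and none in the other groups, and OASL had 1 read in siC and 1 in siSRF. MX1 had 11 reads in siC, 27 in siIGF2BP1 and 13 in siSRF. TRIM22, IFI27 and XAF1 passed the filter in the comparisons with siIGF2BP1 but not in siSRF against siC. Against siC they passed through their siIGF2BP1 libraries, so their rise there is partly fixed by the filter. They still count among the genes tested below.

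Upon IGF2BP1 depletion, the genes of the set lay mostly above siC. Of the 44 genes that could be tested, 10 passed as higher in limma-trend on log2(FPKM + 0.1), with a threshold of 0.01 on the p adjusted by Benjamini-Hochberg over every gene tested. Over all 22292 genes tested, 3.55% were called higher. A call means this test and threshold wherever no other test is named. The alternative test, limma-voom, was run on whole reads recovered from the FPKM values. The 10 were the transcription factor IRF1, the effectors IFIT1, IFIT2 and IFIT3, the membrane proteins IFITM1 and IFITM3, the ADP-ribosyltransferase family members PARP9 and PARP14, and the restriction factors SAMD9 and SAMD9L. DDX58, which encodes RIG-I, was the only gene of the set called lower, against 3.57% of all genes. The log2 fold change was positive for 38 genes and negative for 6, and its median was 0.58, where the median of all genes tested was 0.02. All siIGF2BP1 libraries lay above all siC libraries for 31 genes of the set, and for 18.1% of all genes tested. With any 1 library left out, between 3 and 4 genes were called higher in place of 10: 3 without siC replicate 1 or without siIGF2BP1 replicate 2 or 3, and 4 without siC replicate 2 or 3 or without siIGF2BP1 replicate 1. The call of DDX58 held in each of these fits, as did those of SAMD9L, IFITM1 and PARP14.

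Upon SRF depletion, the set lay mostly below siC. Of 41 genes tested, 8 were lower, where 5.34% of all 21857 genes were. These were OAS3, IFIT3, GBP1, PLSCR1, DTX3L, PARP12, SAMD9L and IFI44. No gene of the set was called higher by limma-trend, against 6.85% of all genes. IFIT5 and SP100 had positive fold changes with an unadjusted p under 0.05, and limma-voom called 1 gene, SP100, higher. The log2 fold change was negative for 31 genes and positive for 10, with a median of -0.39, where that of all genes was 0.01. All siSRF libraries lay below all siC libraries for 26 genes of the set, and for 19.0% of all genes. GBP1, IFI44L and OAS1, which are among the 26, had siSRF means below 0.1 FPKM and passed the filter through their siC libraries. Without 1 library, the 8 calls fell to 0 without siC replicate 1, to 1 without siC replicate 2 or siSRF replicate 3, to 2 without siSRF replicate 1 or 2, and to 3 without siC replicate 3. Both comparisons share the siC libraries, so the direct comparison of the knockdowns, which uses none of them, is the test of the difference.

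In that direct comparison, 27 of 44 genes tested were higher in siIGF2BP1 than in siSRF and 1 was lower. Over all 22311 genes, 8.82% were higher and 11.2% were lower. The median log2 difference was 1.00 for the set and 0.02 for all genes. The siIGF2BP1 libraries lay above every siSRF library for 34 genes of the set, and for 22.8% of all genes. Among the 34 are TRIM22, XAF1, GBP1, IFI44L and OAS1, whose siSRF means were below 0.1 FPKM. They passed the filter here through their siIGF2BP1 libraries, so their place above siSRF is partly fixed by the filter. GBP1 and IFI44L are also among the 27 genes called. With 1 library left out, between 21 and 23 genes were called higher. For 21 genes the siC libraries lay in between, below every siIGF2BP1 library and above every siSRF library, an order that 4.01% of all genes tested showed. These were bulk samples, in which a lower share of cells with a transcript and less of it per cell cannot be told apart.

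**Figure D1:**
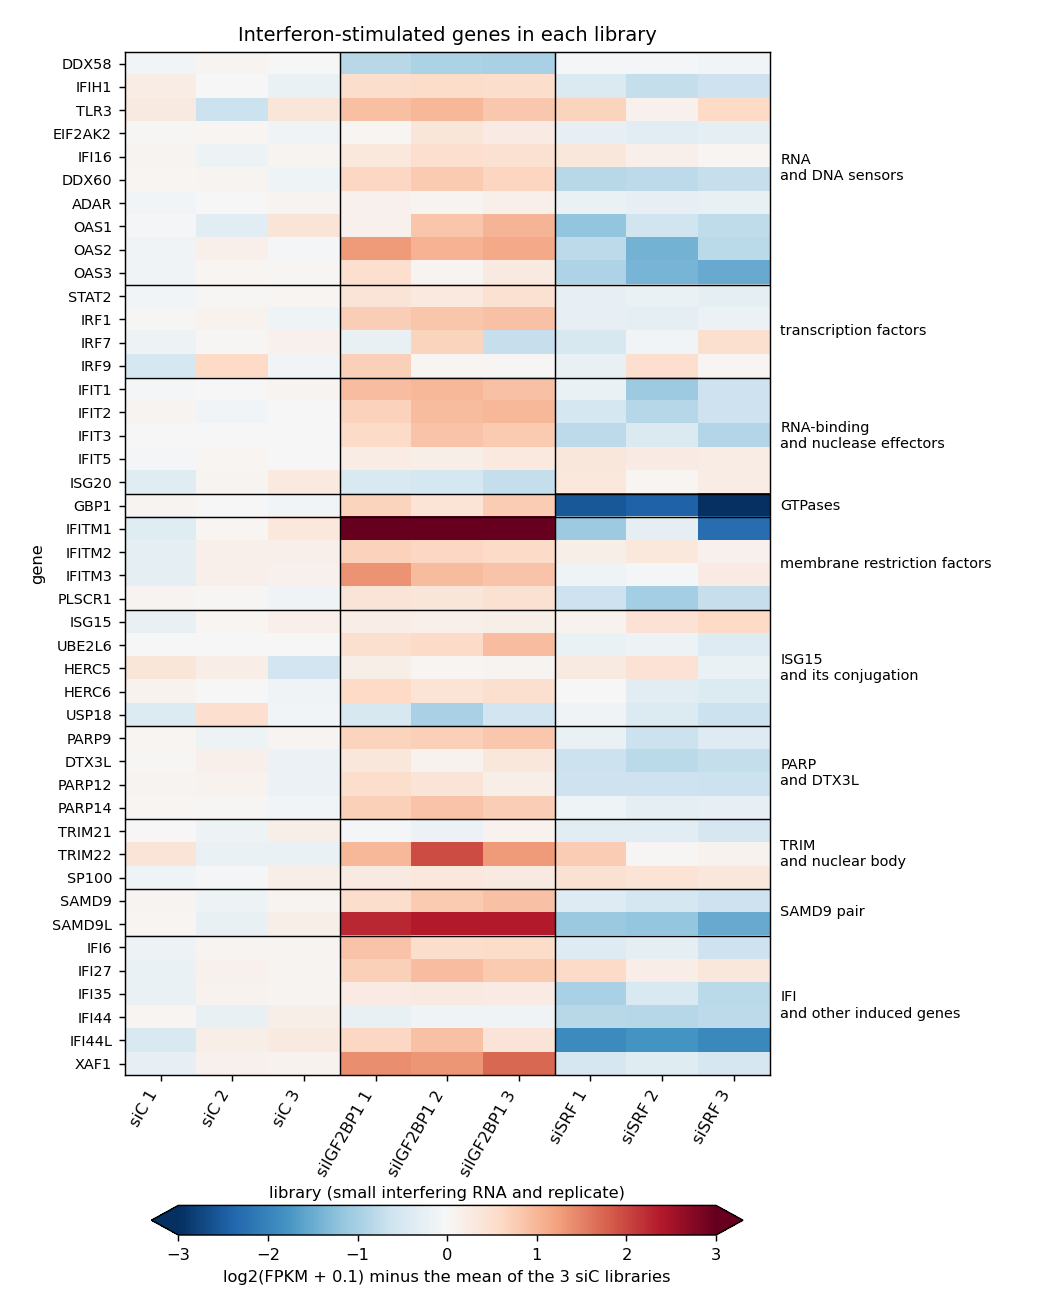
Each row is 1 of the 44 genes tested in at least 1 comparison, grouped by role, and each column is 1 library. The colour is log2(FPKM + 0.1) minus the mean of the 3 siC libraries, limited to between -3 and 3. The siIGF2BP1 columns are mostly red and the siSRF columns mostly blue. DDX58 is blue in all 3 siIGF2BP1 libraries.

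The sensors did not move as a block. DDX58 (RIG-I, chromosome 9 from 32455302 to 32526208, minus strand, GRCh38), which binds short double-stranded RNA with a triphosphate end, was at 6.61, 7.34 and 6.92 FPKM in siC, 3.84, 3.56 and 3.50 FPKM in siIGF2BP1 and 6.63, 6.68 and 6.61 FPKM in siSRF. Every siIGF2BP1 library lay below every siC and every siSRF library. In siIGF2BP1 against siC its log2 fold change was -0.92 (SE 0.081, adjusted p = 0.00126), and the direct difference from siSRF was -0.85 on the log2 scale, SE 0.069, adjusted p = 2.7e-04. Between siSRF and siC no difference was detected, with a log2 fold change of -0.07 and a 95% confidence interval from -0.22 to 0.09. IFIH1 (MDA5), the related helicase that binds long double-stranded RNA, was at 1.47, 1.24 and 1.07 FPKM in siC, 1.84, 1.88 and 1.85 FPKM in siIGF2BP1 and 0.898, 0.727 and 0.779 FPKM in siSRF. Its groups did not overlap, and it was highest in siIGF2BP1, where DDX58 was lowest. It was higher in siIGF2BP1 than in siSRF (1.12 on the log2 scale, SE 0.16, adjusted p = 0.00289) but passed the threshold against siC in neither knockdown. Its log2 fold changes against siC were 0.54 in siIGF2BP1 and -0.59 in siSRF (adjusted p = 0.0866 and 0.0982). TLR3, the endosomal receptor of double-stranded RNA, was at 0.631, 0.285 and 0.679 FPKM in siC, 1.03, 1.10 and 0.948 FPKM in siIGF2BP1 and 0.855, 0.555 and 0.807 FPKM in siSRF. The siIGF2BP1 libraries were above all others, but limma-trend called TLR3 in no comparison (adjusted p = 0.137, 0.455 and 0.211 for siIGF2BP1 against siC, siSRF against siC and siIGF2BP1 against siSRF), and limma-voom called it higher in siIGF2BP1 than in siC.

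DDX60, a helicase of the same superfamily, was at 1.68, 1.72 and 1.47 FPKM in siC, 2.55, 2.88 and 2.61 FPKM in siIGF2BP1 and 0.872, 0.894 and 0.965 FPKM in siSRF. The 3 groups did not overlap, and the direct difference was 1.46 on the log2 scale, SE 0.14, adjusted p = 5.1e-04. EIF2AK2, the kinase PKR that halts translation when it binds double-stranded RNA, was at 10.3, 10.52 and 9.43 FPKM in siC, 10.46, 12.95 and 11.9 FPKM in siIGF2BP1 and 8.52, 7.94 and 8.35 FPKM in siSRF. The siSRF libraries were below all others, while siC and siIGF2BP1 overlapped, and the direct difference was 0.50 on the log2 scale, SE 0.087, adjusted p = 0.00606. ADAR, which converts adenosine to inosine in double-stranded RNA, was at 42.3, 44.7 and 47.6 FPKM in siC, 49.1, 47.4 and 50.1 FPKM in siIGF2BP1 and 39.0, 37.8 and 38.2 FPKM in siSRF. Its direct difference was small but tight (0.35 on the log2 scale, SE 0.036, adjusted p = 7.1e-04), and siC overlapped with siIGF2BP1 only. IFI16 ranged from 22.5 to 35.7 FPKM over the 9 libraries and was called in no comparison by limma-trend, whereas limma-voom called it higher in siIGF2BP1 than in siC and in siSRF.

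The OAS enzymes make oligoadenylates in response to double-stranded RNA, and their genes lie side by side on chromosome 12, except for OASL. OAS3 was at 3.176, 3.60 and 3.54 FPKM in siC, 4.90, 3.64 and 4.15 FPKM in siIGF2BP1 and 1.75, 1.25 and 1.13 FPKM in siSRF. The siSRF libraries were the lowest without overlap (log2 fold change -1.28, SE 0.18, adjusted p = 0.00441 against siC). OAS2 was at 0.629, 0.775 and 0.662 FPKM in siC, 1.79, 1.53 and 1.62 FPKM in siIGF2BP1 and 0.358, 0.193 and 0.346 FPKM in siSRF. Here siIGF2BP1 also lay above siC, with a log2 fold change of 1.15 (adjusted p = 0.0102) just outside the threshold, and the direct difference was 2.16 on the log2 scale, SE 0.27, adjusted p = 0.00154. OAS1 was at most at 0.62 FPKM in any library and was called by limma-voom, as higher in siIGF2BP1 than in siSRF, but not by limma-trend. Of the 11 sensors and RNA-acting enzymes, 10 could be tested, and 6 were higher and 1 was lower in siIGF2BP1 than in siSRF, where 8.82% of all genes were higher and 11.2% lower.

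**Figure D2:**
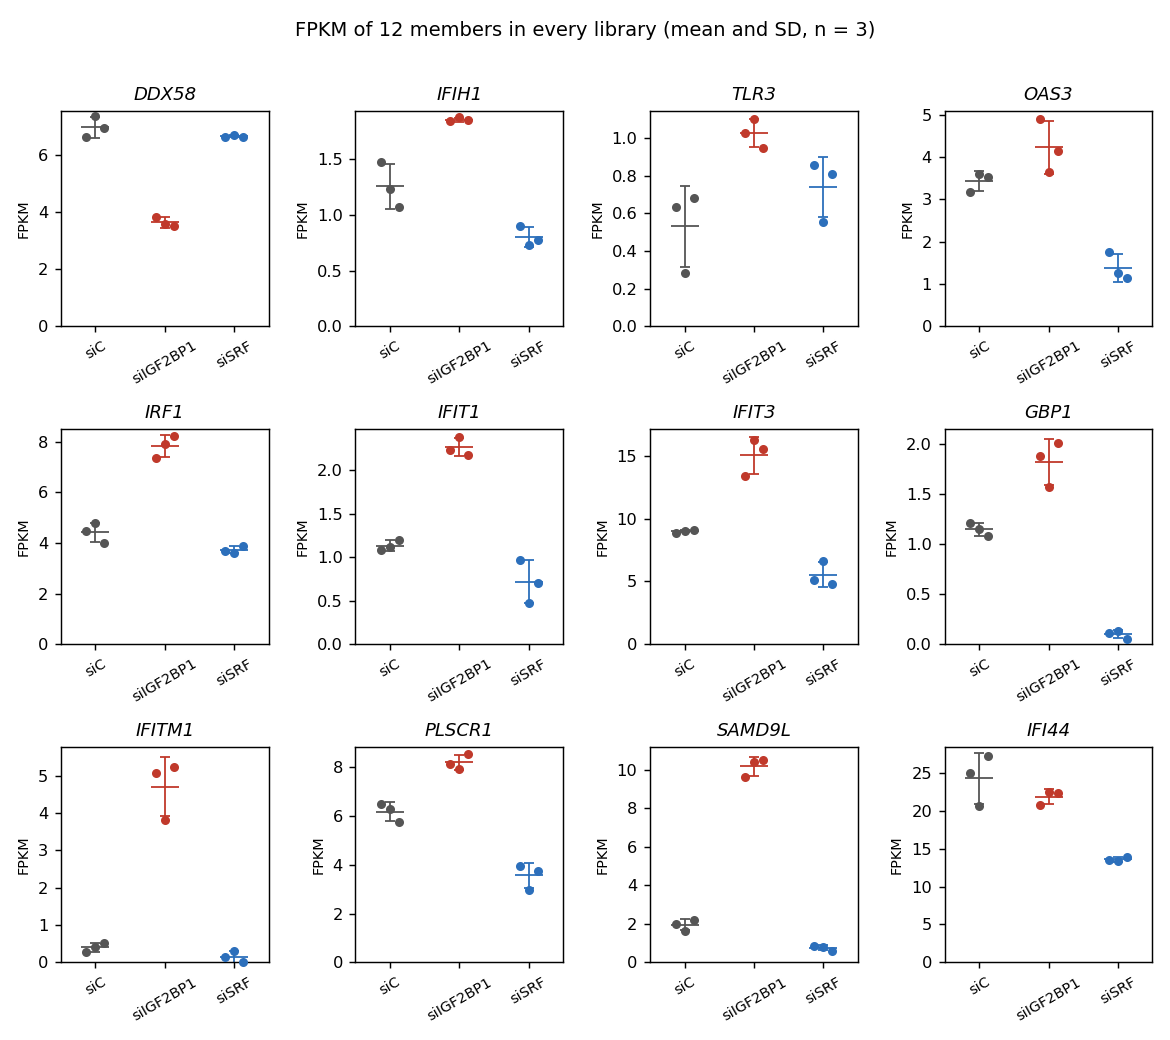
FPKM (vertical axis, from 0, a scale of its own for each gene) of 12 members in siC, siIGF2BP1 and siSRF. Points are libraries, and the horizontal mark and bar are the mean and SD (n = 3). DDX58 is lowest in siIGF2BP1, whereas SAMD9L, IFITM1, IFIT1 and IFIT3 are highest there, and GBP1 is near 0 in siSRF.

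Of the 4 transcription factors, 2 were called higher in siIGF2BP1 than in siSRF, where 8.82% of all genes were. IRF1, an activator of both interferon and antiviral genes, was at 4.49, 4.77 and 4.01 FPKM in siC, 7.37, 7.93 and 8.22 FPKM in siIGF2BP1 and 3.70, 3.60 and 3.88 FPKM in siSRF. The siIGF2BP1 libraries were above all others and siSRF below siC without overlap. In siIGF2BP1 against siC its log2 fold change was 0.81 (SE 0.092, adjusted p = 0.00282), against a log2 fold change of -0.24 (adjusted p = 0.136) upon SRF depletion. STAT2, which acts with IRF9 in a complex that binds the interferon-stimulated response element, was at 6.92, 7.52 and 7.67 FPKM in siC, 9.59, 9.11 and 10.1 FPKM in siIGF2BP1 and 6.22, 6.36 and 6.08 FPKM in siSRF. Its groups did not overlap either, and the direct difference was 0.62 on the log2 scale, SE 0.060, adjusted p = 5.7e-04. IRF7 and IRF9 were low, between 0.16 and 1.20 FPKM over all libraries, with overlapping groups in every comparison.

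Some IFIT proteins, such as IFIT1, bind the ends of RNAs that lack the marks of the cell's own mRNA. The IFIT genes form a cluster on chromosome 10. IFIT1 was at 1.08, 1.12 and 1.20 FPKM in siC, 2.23, 2.38 and 2.18 FPKM in siIGF2BP1 and 0.972, 0.476 and 0.706 FPKM in siSRF. IFIT2 was at 1.85, 1.61 and 1.72 FPKM in siC, 2.86, 3.41 and 3.51 FPKM in siIGF2BP1 and 1.16, 0.910 and 1.09 FPKM in siSRF. IFIT3 was at 8.89, 9.03 and 9.06 FPKM in siC, 13.4, 16.3 and 15.5 FPKM in siIGF2BP1 and 5.15, 6.65 and 4.83 FPKM in siSRF. For all 3 genes the groups kept apart in the order siSRF, siC, siIGF2BP1. In siIGF2BP1 against siC the log2 fold changes were 0.94 for IFIT1, 0.88 for IFIT2 and 0.73 for IFIT3 (adjusted p = 0.00732, 0.00778 and 0.00267). IFIT3 was the only one of them called lower in siSRF by limma-trend (log2 fold change -0.70, SE 0.12, adjusted p = 0.00933), and IFIT1 and IFIT2 were at log2 fold changes of -0.64 and -0.67 with an adjusted p of 0.165 and 0.0334, where limma-voom called IFIT2 as well. The direct differences were 1.58 for IFIT1, 1.54 for IFIT2 and 1.43 for IFIT3 on the log2 scale. The fourth gene of the cluster, IFIT5, went another way, with log2 fold changes of 0.23 in siIGF2BP1 and 0.27 in siSRF and a direct difference of -0.04 (95% confidence interval -0.18 to 0.10), none of them called by limma-trend or limma-voom. ISG20, an exonuclease, had log2 fold changes of -0.57 in siIGF2BP1 and 0.21 in siSRF and was called in no comparison by limma-trend, and as lower in siIGF2BP1 than in siSRF by limma-voom.

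GBP1 (chromosome 1 from 89051882 to 89065360, minus strand), a GTPase that assembles on vacuoles and bacteria, gave the largest fold change of the set in siSRF against siC. It was at 1.21, 1.15 and 1.08 FPKM in siC, 1.88, 1.57 and 2.01 FPKM in siIGF2BP1 and 0.112, 0.132 and 0.0543 FPKM in siSRF. The siSRF libraries were far below all others. In siSRF against siC its log2 fold change was -2.66 (SE 0.31, adjusted p = 0.00223). These values rest on few reads, 12 in siSRF against 118 in siC, so siC was 11.3 times siSRF after scaling by library size, with a 95% interval from 6.21 to 22.4 (exact binomial, counting error only). In siIGF2BP1 GBP1 lay above siC without overlap, with a log2 fold change of 0.62 (adjusted p = 0.0563).

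Of the membrane restriction factors, IFITM1 gave the largest log2 fold change of the set in siIGF2BP1 on the log2(FPKM + 0.1) scale. IFITM1 (chromosome 11 from 310041 to 315272, plus strand), which blocks the fusion of viruses with cell membranes, was at 0.280, 0.409 and 0.512 FPKM in siC, 5.07, 3.81 and 5.25 FPKM in siIGF2BP1 and 0.130, 0.305 and 0 FPKM in siSRF. The siIGF2BP1 libraries were far above the rest, and siC and siSRF overlapped. In siIGF2BP1 against siC its log2 fold change was 3.28 (SE 0.24, adjusted p = 7.0e-04). It was covered by 120 reads in siIGF2BP1 and by 9 in siC, a ratio of 11.7 after scaling by library size, with a 95% interval from 5.98 to 26.3. By reads the ratio of TRIM22 was higher, at 13.2, over 30 reads against 2 and with an interval from 3.35 to 114. IFITM2 was at 8.15, 11.1 and 11.02 FPKM in siC, 16.1, 15.3 and 14.9 FPKM in siIGF2BP1 and 11.3, 12.4 and 10.99 FPKM in siSRF. IFITM3 was at 5.62, 7.53 and 7.49 FPKM in siC, 17.5, 13.3 and 12.3 FPKM in siIGF2BP1 and 6.24, 6.51 and 8.15 FPKM in siSRF. All 3 IFITM genes were highest in siIGF2BP1, and none differed between siSRF and siC beyond the threshold. Against siC, IFITM3 rose with a log2 fold change of 1.05 (adjusted p = 0.0099), and IFITM2 had a log2 fold change of 0.62 (adjusted p = 0.0211). Reads may be split between these close paralogs, so their single values are uncertain. PLSCR1, a membrane protein with antiviral activity, was at 6.49, 6.27 and 5.73 FPKM in siC, 8.11, 7.93 and 8.54 FPKM in siIGF2BP1 and 3.94, 2.98 and 3.75 FPKM in siSRF. Its groups kept apart, and it was called lower in siSRF (log2 fold change -0.78, SE 0.12, adjusted p = 0.0064) with a log2 fold change of 0.41 (adjusted p = 0.0147) in siIGF2BP1.

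ISG15 is a ubiquitin-like protein that is attached to other proteins by dedicated enzymes. Of 5 genes of this group, limma-trend called only 1 in any comparison. This was UBE2L6, higher in siIGF2BP1 than in siSRF, where 8.82% of all genes were. Limma-voom called 2, UBE2L6 and HERC6. UBE2L6, the conjugating enzyme for ISG15, was at 12.1, 11.99 and 11.9 FPKM in siC, 16.8, 17.8 and 23.0 FPKM in siIGF2BP1 and 10.46, 10.7 and 9.20 FPKM in siSRF. It was higher in siIGF2BP1 than in siSRF (0.91 on the log2 scale, SE 0.13, adjusted p = 0.00267), with a log2 fold change of 0.66 (adjusted p = 0.0136) against siC. ISG15 itself had log2 fold changes of 0.17 in siIGF2BP1 and 0.38 in siSRF and a direct difference of -0.21 (95% confidence interval -0.52 to 0.10). Neither test called the ligase HERC5 or the protease USP18, which removes ISG15, in any comparison. The related gene HERC6 was called by limma-voom but not by limma-trend, as higher in siIGF2BP1 than in siC and in siSRF. For USP18 the siIGF2BP1 libraries lay below all siC libraries, with a log2 fold change of -0.68 and an adjusted p of 0.155.

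PARP9 and DTX3L act as a pair, a member of the ADP-ribosyltransferase family and a ubiquitin ligase, and their genes lie head to head on chromosome 3 with overlapping ends on opposite strands. PARP9 was at 2.27, 1.94 and 2.32 FPKM in siC, 3.52, 3.65 and 3.86 FPKM in siIGF2BP1 and 1.88, 1.36 and 1.62 FPKM in siSRF. DTX3L was at 10.9, 11.8 and 9.47 FPKM in siC, 13.7, 11.4 and 13.6 FPKM in siIGF2BP1 and 6.76, 6.09 and 6.52 FPKM in siSRF. Both were lowest in siSRF, while siC and siIGF2BP1 overlapped for DTX3L but not for PARP9. PARP9 was called higher in siIGF2BP1 (log2 fold change 0.73, SE 0.12, adjusted p = 0.00899), and DTX3L was called lower in siSRF (log2 fold change -0.72, SE 0.10, adjusted p = 0.00345). Their direct differences, 1.142 and 0.986 on the log2 scale, were both called (adjusted p = 0.00154 and 0.00041). PARP14, a mono-ADP-ribosyltransferase, was at 11.9, 11.6 and 10.7 FPKM in siC, 18.7, 20.8 and 19.2 FPKM in siIGF2BP1 and 10.3, 9.24 and 9.55 FPKM in siSRF. The siIGF2BP1 libraries were above all others (log2 fold change 0.77, SE 0.066, adjusted p = 0.00113 against siC). PARP12, which belongs to the same family, was at 4.65, 4.75 and 3.92 FPKM in siC, 6.43, 5.78 and 5.03 FPKM in siIGF2BP1 and 2.85, 2.83 and 2.81 FPKM in siSRF. It was called lower in siSRF (log2 fold change -0.63, SE 0.10, adjusted p = 0.00777), and its siIGF2BP1 libraries lay above siC with a log2 fold change of 0.36 (adjusted p = 0.109). All 4 genes of the group were called higher in siIGF2BP1 than in siSRF, where 8.82% of all genes were.

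SAMD9L and SAMD9 are neighbours on chromosome 7 and encode related proteins that restrict poxviruses and can slow protein synthesis. SAMD9L (chromosome 7 from 93130056 to 93148385, minus strand) was at 2.02, 1.63 and 2.19 FPKM in siC, 9.63, 10.4 and 10.52 FPKM in siIGF2BP1 and 0.845, 0.815 and 0.608 FPKM in siSRF. No library of one group reached the range of another. In siIGF2BP1 against siC its log2 fold change was 2.34 (SE 0.12, adjusted p = 2.4e-04), a ratio of group means of 5.24, and upon SRF depletion it fell (log2 fold change -1.26, SE 0.21, adjusted p = 0.00771). Its direct difference of 3.60 (SE 0.14, adjusted p = 2.5e-05) had the smallest adjusted p of the set. SAMD9 was at 7.05, 5.97 and 7.02 FPKM in siC, 9.61, 11.5 and 12.4 FPKM in siIGF2BP1 and 5.03, 4.61 and 4.29 FPKM in siSRF. Its groups also kept apart, with log2 fold changes of 0.73 in siIGF2BP1, which was called, and -0.51 in siSRF, which was not (adjusted p = 0.00971 and 0.0141). By limma-trend, SAMD9L and IFIT3 were the 2 genes of the set called in opposite directions in the 2 knockdowns, where limma-voom called 8, these and DDX60, OAS2, IFIT2, PLSCR1, PARP14 and SAMD9. Without a filter, or with the replicate number fitted as a block, 0 genes were called in this way. With 1 library left out, the siSRF call of SAMD9L was lost in all 6 fits and that of IFIT3 in 5. The share of all genes called in opposite directions was not counted, so these numbers only describe the set.

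Of the remaining genes, IFI44 was at 25.0, 20.7 and 27.3 FPKM in siC, 20.7, 22.5 and 22.4 FPKM in siIGF2BP1 and 13.5, 13.3 and 13.9 FPKM in siSRF. The siSRF libraries were below all others (log2 fold change -0.83, SE 0.10, adjusted p = 0.00272), and siC and siIGF2BP1 overlapped. IFI6, a small protein of the endoplasmic reticulum and mitochondria, was at 8.93, 10.55 and 10.55 FPKM in siC, 18.2, 14.4 and 14.6 FPKM in siIGF2BP1 and 7.62, 8.24 and 6.43 FPKM in siSRF. IFI35 was at 4.99, 6.19 and 6.03 FPKM in siC, 6.81, 6.88 and 6.76 FPKM in siIGF2BP1 and 2.84, 4.11 and 3.23 FPKM in siSRF. Both kept the order siSRF, siC, siIGF2BP1 without overlap and were called by limma-trend in the direct comparison only, with log2 differences of 1.07 and 1.00 (adjusted p = 0.0013 and 0.00224). By limma-voom IFI6 was also higher in siIGF2BP1 and IFI35 lower in siSRF than in siC. IFI44L, a paralog of IFI44 next to it on chromosome 1, ranged from 0.08 to 1.15 FPKM and was higher in siIGF2BP1 than in siSRF with a log2 difference of 2.50 (adjusted p = 0.00148), over 229 reads against 21. XAF1 had 10 reads in siC, 60 in siIGF2BP1 and 4 in siSRF, and TRIM22 had 2, 30 and 6 reads. Neither was called by limma-trend, and limma-voom called both higher in siIGF2BP1 than in siC and in siSRF. Both genes passed the filter only through their siIGF2BP1 libraries, so these calls add no support for a rise of the set. SP100 and TRIM21, a nuclear body protein and a cytosolic antibody receptor, were called in no comparison by limma-trend, and limma-voom called SP100 alone, in siSRF as given above, with direct log2 differences of -0.12 and 0.34. Exons of EIF2AK2, OAS1, IRF1, IFIT2, IFIT3, MX1, RSAD2, CMPK2, IFITM1, IFITM2, IFITM3, ISG15, PARP9, DTX3L, SP100 and XAF1 overlap a gene on the other strand in GENCODE. The library kit keeps the strand, but the sources used here do not say that the counting did, so reads of such partners cannot be told apart. IRF9, IFIT2, TRIM22, SP100 and IFI6 overlap a gene on their own strand, and their values are uncertain in the same way.

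**Figure D3:**
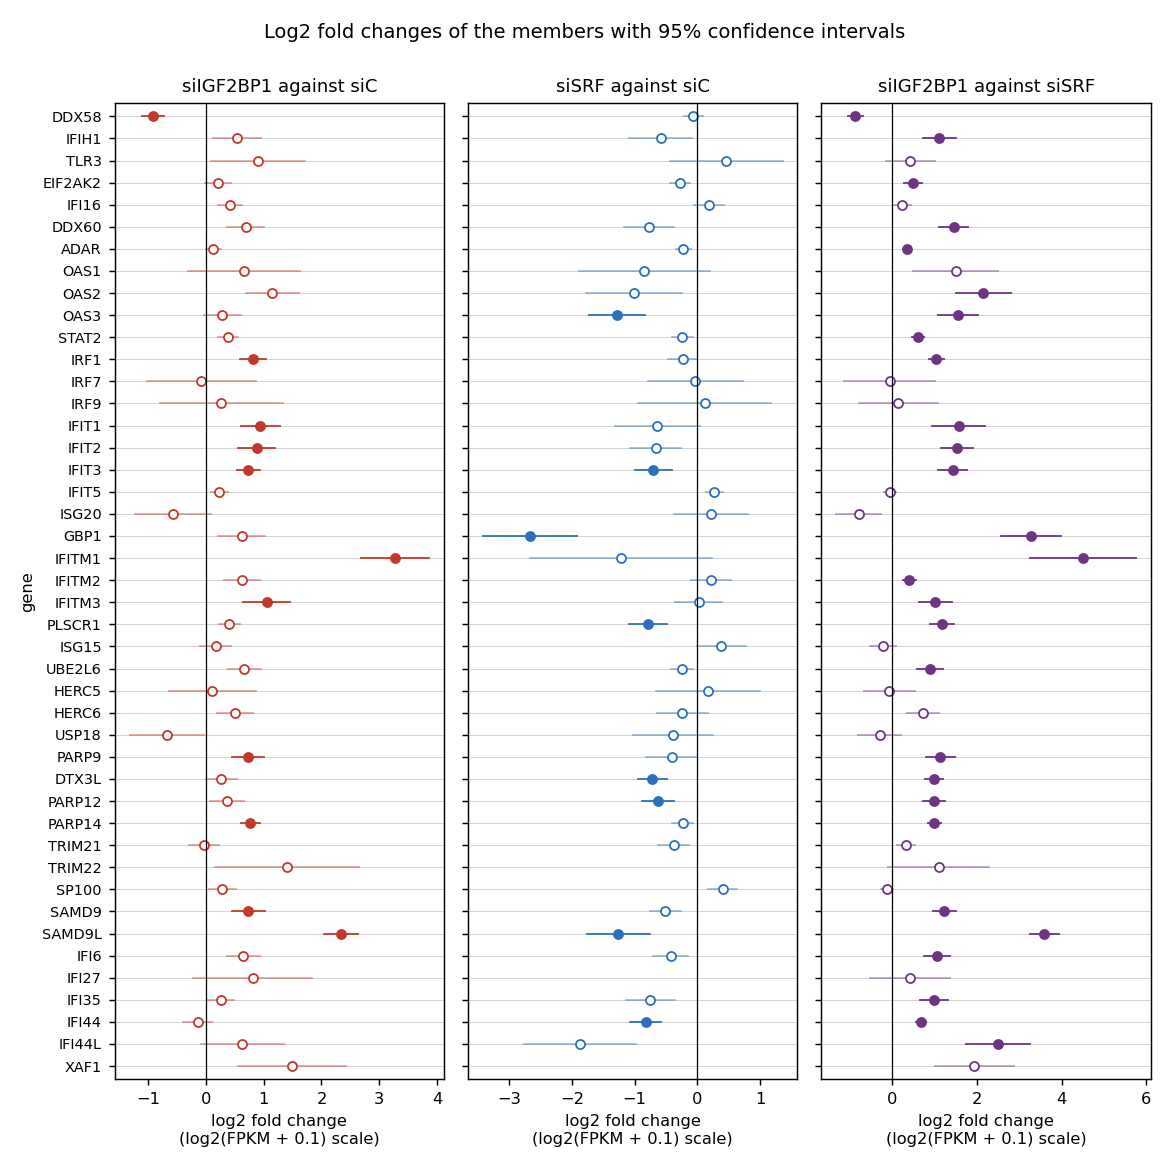
Log2 fold changes on the log2(FPKM + 0.1) scale (horizontal axes) with 95% confidence intervals from limma-trend, 1 row per gene in the order of roles. Filled points passed the threshold of 0.01 on the adjusted p. In the left panel the largest changes are those of IFITM1 at 3.28 and SAMD9L at 2.34, in the middle panel that of GBP1 at -2.66, and TRIM22, IFI27 and XAF1 have no point there because they did not pass the filter.

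The promoters of the set were read next, since the interferon-stimulated response element is known from many genes of this kind. Promoters of 300 bases, from 250 before to 50 after an annotated start site, were taken from RefSeq (GRCh38.p14) and were found for 43 of the 51 genes. For each gene 1 promoter was read, the first listed, and any other start sites were not searched. The window of IFI16, for example, lay at 159008741 to 159009040, inside a gene that starts at 158999968. OAS2, OASL, IRF7, IFIT2, MX2, IFITM2, USP18 and TRIM22 were not matched. The interferon-stimulated response element was searched as 2 copies of GAAA with any 2 bases between them, or of TTTC for the other strand. It was present in 27 of 43 promoters (62.8%), where 3.57% of all 35116 promoters hold it. The letters TTCNNNGAA, which stand for the gamma-activated site bound by STAT proteins, were present in 12 of 43 (27.9%) and in 7.66% of all promoters. The first motif was in 6 of the 9 promoters found among the genes called higher in siIGF2BP1 (66.7%) and in 18 of 28 among those tested and not called (64.3%). It was in 7 of 8 promoters of the genes called lower in siSRF (87.5%) and in 16 of 28 of those not called (57.1%). A match is only a description of these letters.

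The stretches around the motif nearest to the start are shown for genes called in either knockdown, since these carry the comparisons above. They are written in the direction of the gene with the motif in capitals. In siIGF2BP1 the genes called higher with a match were IFIT1, IFIT3, IFITM1, IFITM3, PARP14 and SAMD9.
IFIT1, chr10:89392510-89392539, plus strand: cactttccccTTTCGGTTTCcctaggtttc
IFIT3, chr10:89327865-89327894, plus strand: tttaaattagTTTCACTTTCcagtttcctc
IFITM1, chr11:314024-314053, plus strand: acacttctgaGAAACTGAAAcgacagggga
IFITM3, chr11:320876-320905, minus strand: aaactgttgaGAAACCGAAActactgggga
PARP14, chr3:122680800-122680829, plus strand: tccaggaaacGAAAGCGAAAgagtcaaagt
SAMD9, chr7:93118096-93118125, minus strand: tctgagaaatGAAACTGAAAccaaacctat

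In siSRF the genes called lower with a match were IFIT3, shown above, and OAS3, GBP1, PLSCR1, DTX3L, PARP12 and IFI44.
OAS3, chr12:112938452-112938481, plus strand: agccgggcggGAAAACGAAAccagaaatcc
GBP1, chr1:89065316-89065345, minus strand: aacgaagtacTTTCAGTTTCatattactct
PLSCR1, chr3:146544667-146544696, minus strand: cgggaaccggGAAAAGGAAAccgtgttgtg
DTX3L, chr3:122564322-122564351, plus strand: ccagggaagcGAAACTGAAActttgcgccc
PARP12, chr7:140062942-140062971, minus strand: ccggggccgcTTTCGGTTTCgtttcccgcc
IFI44, chr1:78649761-78649790, plus strand: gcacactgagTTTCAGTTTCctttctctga

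No match lay in the window of SAMD9L, PARP9 or IRF1. The PARP9 window, at 122564735 to 122565034, lay outside the gene, which ends at 122564577 in GENCODE. The stretch shown for DTX3L lies within the PARP9 gene, so PARP9 cannot be said to lack the motif. DDX58 had no match in its window either, while IFIH1 had 3, the nearest of which is shown to set beside DDX58.
IFIH1, chr2:162318686-162318715, minus strand: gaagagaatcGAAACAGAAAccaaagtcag

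IRF1 held the other motif instead.
IRF1, chr5:132490879-132490907, minus strand: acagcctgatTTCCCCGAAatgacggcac

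A further search, added after the values were seen, looked for the CArG box bound by SRF, which was present in 1.29% of all promoters and in 2 of the 43, those of GBP1 and ISG15. GBP1 had the largest fold change upon SRF depletion, and ISG15 was not called. The box was thus in 1 of 8 promoters of the genes called lower in siSRF and in 1 of 28 of those not called. Whether SRF binds at either stretch was not tested.
GBP1, chr1:89065355-89065384, minus strand: tccactaattCCATTTATGGtagtggagtc
ISG15, chr1:1013396-1013425, plus strand: gaaactgaagCCAAATTTGGccaccagcgc

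The genes upstream of the set were read from the same fits. They were 38 genes in 5 lists, of which 26 could be tested. Of 10 interferon genes, only IFNE, a type I interferon of epithelia, had reads, at 0.28 to 1.24 FPKM without a call. IFNB1, IFNA1, IFNA2, IFNK, IFNW1, IFNG, IFNL1, IFNL2 and IFNL3 had no read in any library, which allows IFNB1, for example, up to 0.383 to 0.529 FPKM per library. At 72 h, then, RNA of these 9 interferons was not detectable at this depth in any group. Of the receptors, IFNAR1 was at 5.94, 6.66 and 6.30 FPKM in siC, 5.17, 4.74 and 4.82 FPKM in siIGF2BP1 and 7.47, 8.10 and 7.43 FPKM in siSRF. It was lower in siIGF2BP1 than in siSRF (-0.63 on the log2 scale, SE 0.069, adjusted p = 9.4e-04). The gamma interferon receptor genes moved apart in siSRF, IFNGR1 upward (log2 fold change 0.70, SE 0.081, adjusted p = 0.00218) and IFNGR2 downward (log2 fold change -0.57, SE 0.070, adjusted p = 0.0026), and IFNGR2 was also higher in siIGF2BP1 than in siSRF. The rise of IFNGR1 was not particular to siSRF. In siIGF2BP1 its log2 fold change against siC was 0.58, just outside the threshold of limma-trend (adjusted p = 0.0102). By limma-voom, IFNGR1, IFNAR2 and IL10RB were called higher and IFNAR1 lower in siIGF2BP1 than in siC. IFNLR1, the receptor chain for lambda interferons, had reads in 1 library only.

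Of 4 kinases and STAT genes, 2 were called higher in siIGF2BP1 than in siC, where 3.55% of all genes were. JAK1, the kinase shared by all interferon receptors, was at 15.8, 17.1 and 14.6 FPKM in siC, 29.3, 24.4 and 25.8 FPKM in siIGF2BP1 and 21.4, 21.0 and 20.5 FPKM in siSRF. It was higher than siC in both knockdowns, with log2 fold changes of 0.74 and 0.41 (adjusted p = 0.0037 and 0.0069). STAT3, a transcription factor of cytokine signalling, was at 6.995, 7.36 and 7.500 FPKM in siC, 10.9, 11.2 and 11.8 FPKM in siIGF2BP1 and 8.56, 8.86 and 7.76 FPKM in siSRF. It was highest in siIGF2BP1, with a log2 fold change of 0.63 against siC (adjusted p = 0.0017), and was also called higher there than in siSRF.

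A list of 14 genes held further sensors beside adaptors, kinases and factors that act with or after the sensors. None of them was called in siIGF2BP1 against siC by limma-trend, while 1 had an unadjusted p under 0.05 and limma-voom called 1, TRIM25, higher. In siSRF, MAVS, the adaptor of RIG-I and MDA5, was lower (log2 fold change -0.62, SE 0.057, adjusted p = 0.00109), as were TMEM173, the DNA-sensing adaptor STING (log2 fold change -0.62, SE 0.074, adjusted p = 0.0023), and RNF135, a ubiquitin ligase for RIG-I (log2 fold change -0.49, SE 0.075, adjusted p = 0.00535). The kinase TBK1 was higher (log2 fold change 0.79, SE 0.095, adjusted p = 0.00241). In the direct comparison MAVS, TMEM173, RNF135, the kinase IKBKE and the ligase TRIM25 were higher in siIGF2BP1, and TBK1 and the factor IRF3 were lower. The DNA sensor gene MB21D1 (cGAS) was at or under 0.1 FPKM in every library, and ZBP1 had no read.

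Of the inhibitors that end interferon signalling, SOCS1 was at 0.618, 0.601 and 0.564 FPKM in siC, 2.98, 2.24 and 2.60 FPKM in siIGF2BP1 and 0.458, 0.896 and 0.332 FPKM in siSRF. The siIGF2BP1 libraries were far above all others (log2 fold change 1.95, SE 0.18, adjusted p = 0.00148 against siC). These values rest on few reads, 15 in siC, 75 in siIGF2BP1 and 17 in siSRF. SOCS3 was at 3.55, 3.34 and 3.995 FPKM in siC, 9.92, 7.52 and 8.51 FPKM in siIGF2BP1 and 8.97, 8.07 and 7.79 FPKM in siSRF. It was higher than siC in both knockdowns (log2 fold change 1.23, SE 0.13, adjusted p = 0.00201 in siIGF2BP1 and log2 fold change 1.17, SE 0.10, adjusted p = 8.0e-04 in siSRF). PTPN2, a phosphatase of JAK and STAT proteins, was called higher in siSRF against siC (log2 fold change 0.75, SE 0.069, adjusted p = 0.00105), and the direct comparison put it lower in siIGF2BP1 (-0.53 on the log2 scale, SE 0.10, adjusted p = 0.0077). Together, of the 26 genes tested in the 5 lists, limma-trend called 4 higher in siIGF2BP1 than in siC and none lower (1 lower at an unadjusted p under 0.05), where 3.55% and 3.57% of all genes were, and limma-voom called 8 higher and 1, IFNAR1, lower. In siSRF against siC, 5 were higher and 4 lower, where 6.85% and 5.34% of all genes were, and 7 and 7 by limma-voom. In the direct comparison 8 were higher and 4 lower, where 8.82% and 11.2% of all genes were, and 11 and 5 by limma-voom. These counts are a description, since the lists were drawn up with earlier results known.

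**Figure D4:**
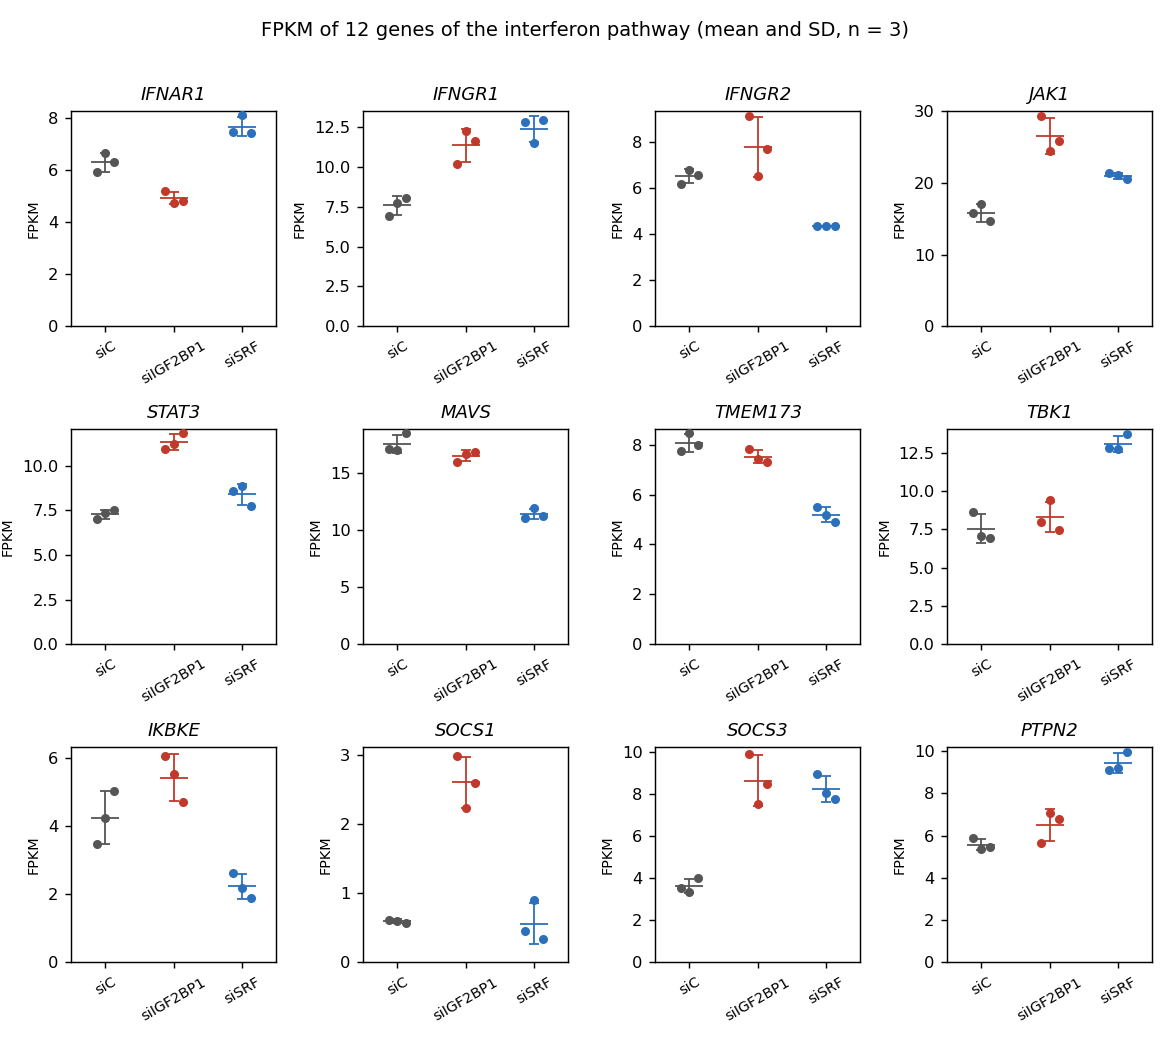
FPKM (vertical axis, from 0, a scale of its own for each gene) of 12 genes of the interferon pathway in siC, siIGF2BP1 and siSRF. Points are libraries, and the horizontal mark and bar are the mean and SD (n = 3). JAK1, STAT3 and SOCS1 are highest in siIGF2BP1, SOCS3 is above siC in both knockdowns, and MAVS and TMEM173 are lowest in siSRF.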

How the data were processed

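The 9 libraries of ES-2 total RNA, 3 each for siC, siIGF2BP1 and siSRF, were sequenced after depletion of ribosomal RNA. The authors clipped reads with cutadapt 1.14, aligned them with HISAT2 2.1.0 to hg38, counted them with featureCounts 1.5.3 and normalized them with edgeR 3.18.1. The authors deposited FPKM values scaled by TMM factors, in 2 tables that share identical siC values. Their columns of fold changes, p-values and FDR were not used. From the FPKM values and gene lengths, 100% of values came out as whole reads (tolerance 0.001), and limma-voom was run on these reads as an alternative.

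Groups came from the sample labels. A gene entered a comparison if its mean over the 6 libraries reached 0.1 FPKM, and was tested on log2(FPKM + 0.1) by limma-trend (limma 3.58.1, R 4.3.3), with Benjamini-Hochberg adjustment over all genes and a threshold of 0.01. Fold changes on this scale understate those of low genes. An exact two-sided permutation test of 3 libraries against 3 cannot go below p = 0.1, so only the separation of groups is given. The fits were also run on simulated reads, for siIGF2BP1 against siC only and with changes set in genes from a mean of 1 FPKM. That run does not cover lower genes or the other comparisons, and no result here rests on it. The members, lists and tests were chosen with earlier results of these data known. Values per library are given for members called in any comparison and reaching a mean of 1 FPKM in a group, and for DDX58, IFIH1 and TLR3. Other members are given by ranges and counts, and pathway genes where called or not detected. Positions are from GENCODE on GRCh38, and Python 3.11.15 was used for tables and sequences. The alternatives are listed in the closing section. A few genes of the pathway and marker lists are not reported here.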

Additional observations from a re-analysis of the deposited data

How the results depend on the processing

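No direction reversed among the called members. For IGF2BP1 depletion against siC, the 10 genes called higher became 5 without a filter, 22 with limma-voom on recovered reads and 20 at a threshold of 0.05. The 22 include TRIM22 and XAF1, and the 20 include XAF1, which passed the filter only through siIGF2BP1. Over all genes limma-voom also called more, as given below. Shares over all genes by direction were not counted for these alternatives in any comparison, so their counts only describe the set. The median log2 fold change of 0.58 over the 44 genes tested became 0.34 with a pseudocount of 1, 0.60 with 0.01, 0.53 without a filter, 0.52 from a mean of 1 FPKM, 0.60 with limma-voom, 0.54 with all 9 libraries in 1 fit and 0.48 after a correction for GC content and length. For SRF depletion, the 8 genes called lower became 17 with limma-voom and 18 at a threshold of 0.05, and the 0 called higher became 1 with limma-voom and 2 with all 9 libraries or at a threshold of 0.05. Between the knockdowns, the median of 1.00 became 0.66 and 1.01 with pseudocounts of 1 and 0.01 and 0.92 after that correction, and the 1 gene called lower became 2 with limma-voom or at a threshold of 0.05.

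With 1 library left out, between 3 and 4 genes were called higher in siIGF2BP1 (median 0.48 to 0.54) and between 0 and 3 lower in siSRF, and the median between the knockdowns ranged from 0.95 to 1.01. Over all genes, limma-voom called 3805, 5123 and 6912 genes in siIGF2BP1 against siC, siSRF against siC and between the knockdowns, against 1588, 2665 and 4460 with limma-trend. The cause of these differences was not tested.

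With the replicate number as a block, 1 gene was called higher and 0 lower in siIGF2BP1 against siC, 0 lower in siSRF and 16 higher in siIGF2BP1 against siSRF, with 91, 501 and 2075 calls over all genes. Same-numbered libraries did not deviate together (correlations across genes from -0.044 to 0.019). This gave no sign that the numbers pair the libraries. It cannot exclude a pairing, since the deviations of single libraries include counting error. Depth limits the genes below 0.1 FPKM, which could not be tested, and the low members IFITM1, GBP1, XAF1 and IFI44L, whose ratios rest on 4 to 229 reads per group.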
